A study of Homo sapiens with 12 samples.

Results

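The 9 genes of MHC class I antigen presentation described here were chosen by symbol, with earlier results of these data known: HLA-B, HLA-C, HLA-E, HLA-F, B2M, TAP1, TAP2, TAPBP and NLRC5. Of these, 8 had a probe set under that symbol on the array, 1 probe set each, out of 17687 distinct gene symbols and 21448 probe sets. HLA-B was not analysed here, since no probe set used carried its symbol. The 12 arrays held RNA from 2 human lung adenocarcinoma cell lines with EGFR mutations, PC-9 and H1975, in 4 groups of 3. The groups were PC-9 cells that had survived 0.5 µM osimertinib for 1 week and then 48 h with 100 µM SK-216, PC-9 cells after the week of osimertinib, and the same pair of groups in H1975. Osimertinib is an inhibitor of the EGFR kinase, and SK-216 is named in the labels as an inhibitor of PAI-1, the inhibitor of plasminogen activators. Cells that had survived osimertinib, called tolerant in the labels and collected on day 8, are the controls, so every group had been through the drug and untreated cells are not part of this comparison. Whether osimertinib stayed in the medium with SK-216 is not said in the labels, nor are tolerant cells kept 48 h longer without SK-216 described, so the compound and the extra time cannot be told apart. For SK-216 samples, titles and descriptions say tolerant cells, whereas the source name says naive cells.

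Class I molecules carry short peptides from inside the cell to its surface, where CD8 T cells and natural killer cells read them. A polymorphic heavy chain (HLA-B, HLA-C and others), or a less variable one (HLA-E, HLA-F), pairs with the light chain B2M. Peptides are made by the proteasome, pumped into the endoplasmic reticulum by the TAP1 and TAP2 transporter, and loaded with the help of TAPBP (tapasin), while NLRC5 is a transcriptional activator of class I genes. Interferons raise most of these genes in epithelial cells.

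All levels below are the log2 signals that the authors deposited, so a difference of 1 is a doubling. Over all probe sets, Pearson r was 0.9934 to 0.9953 within a group and 0.9274 to 0.9323 between lines. The epithelial keratins KRT7, KRT8, KRT18 and KRT19 had group means of 12.63 or more. Of the 9 epithelial and lung markers 0 passed with SK-216 in PC-9 (limma, 3 at an unadjusted p below 0.05). In H1975 2 rose and 2 fell, where 3.80% of all probe sets passed in either direction. CDH1, E-cadherin of epithelial junctions, had 12.15 in SK-216 PC-9, 11.95 in tolerant PC-9, 6.04 in SK-216 H1975 and 7.58 in tolerant H1975 cells, and fell by 1.55 in H1975 (limma adjusted p = 4.51e-08). EPCAM, an epithelial adhesion protein, had 15.43, 15.29, 8.95 and 8.18 in the same groups and rose in H1975 by 0.77 (limma adjusted p = 0.00044). The lung markers NKX2-1, NAPSA and SFTPB stayed low, with group means from 3.40 to 5.19, against a 95th percentile of 5.05 over 349 olfactory receptor probe sets, taken here as a guide to the signal of unexpressed genes. None of 7 measured leukocyte markers passed the test for SK-216 in either line (limma, with 0 at an unadjusted p below 0.05 in PC-9 and 2 in H1975). The pan-leukocyte marker PTPRC had group means from 3.78 to 4.11, but CD3E, CD79A, CD14 and NKG7 exceeded 5.05 in every group. ITGAM did so in SK-216 PC-9 cells alone, at 5.31. CD14 had 6.02 in SK-216 H1975 and 6.75 in tolerant H1975 cells (limma adjusted p = 0.0508, arrays not overlapping). Of 8 stromal and endothelial markers none passed in either line (limma, 1 at an unadjusted p below 0.05 in each). COL1A2 and PDGFRB exceeded 5.05 in every group, as CDH5 and VWF did in both PC-9 groups. The part of these markers in the changes of class I genes was not tested. Each change is a log2 fold change ± its standard error from a limma fit to all 12 arrays, and a call is a Benjamini-Hochberg adjusted p below 0.05 over all 21448 probe sets. Of these probe sets, 2342 had an unadjusted p below 0.05 for SK-216 in PC-9 and 3045 in H1975. RNA was measured in bulk, so fewer expressing cells and less RNA per cell cannot be told apart. The labels do not say that the 3 arrays of a group came from separate cultures, so the spread behind each p-value may be technical.

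In H1975 cells 2 class I genes fell after SK-216, and the others had changes of the same sign. HLA-E, which presents leader peptides of other class I molecules to natural killer cells, and TAPBP fell, to 0.649 and 0.727 times their tolerant level. They were the 2 members called among 8, both lower, where 3.80% of all probe sets were called and 2.35% were called lower. All 8 members had a negative log2 fold change, against 48.2% of all probe sets, with a median of -0.29, against 0.01 over all probe sets. Among them TAP2 was at -0.02 and changed sign in 4 of 22 alternatives, and NLRC5 had a signal close to that of unexpressed genes. The members were chosen with earlier results of these data known, so such shares are a description and no independent support. In 5 of the 8 (HLA-C, HLA-E, HLA-F, B2M and TAPBP) every SK-216 array lay below every tolerant array, which held for 9.56% of all probe sets. Both calls rest on a variance estimated along the trend with signal level: without that trend the adjusted p was 0.0608 for HLA-E and 0.151 for TAPBP, and 0 of 8 members passed. They held in each of the 12 fits that left out 1 array, with adjusted p of at most 0.0369 for HLA-E and 0.0462 for TAPBP.

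Among the heavy chains, HLA-E (chr6:30489509-30494194, GRCh38.p14) had log2 signals of 10.99, 11.41 and 11.01 in SK-216 H1975 arrays, against 11.79, 11.72 and 11.77 in tolerant H1975 arrays. The groups did not overlap, and the spread was wider with SK-216 (SD 0.24) than in tolerant cells (SD 0.04). The change was -0.62 ± 0.13 (limma adjusted p = 0.00437, 95% interval -0.89 to -0.36). HLA-F (chr6:29723434-29738532), a heavy chain that also occurs without peptide, had 12.14, 12.01 and 12.01 with SK-216, against 12.36, 12.40 and 12.31 in tolerant cells. The arrays separated, but the change of -0.30 ± 0.10 did not pass (limma adjusted p = 0.115). HLA-C (chr6:31268749-31272092), a classical heavy chain that also binds receptors of natural killer cells, had 11.83, 11.92 and 11.88 with SK-216, against 12.04, 12.12 and 12.33 in tolerant cells. Here too the arrays separated and the test was missed, at -0.29 ± 0.11 (limma adjusted p = 0.201). Heavy chain genes are alike in sequence and differ between people, so their probe sets may share signal and may bind the alleles of each line unequally, neither of which was tested.

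B2M (chr15:44711517-44718145), the light chain of all class I molecules, had 16.48, 16.56 and 16.34 in SK-216 H1975 arrays, against 16.64, 16.63 and 16.78 in tolerant arrays. The 2 groups were separate by a small margin, and the change of -0.22 ± 0.07 had an adjusted p of 0.089 by limma, which became 0.049 without PC-9 tolerant array 1. Its signal lay near the top of the range of the array, whose highest value was 18.61.

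Of the genes for peptide transport and loading, TAPBP (chr6:33299694-33314078) had 14.22, 14.15 and 14.42 with SK-216, against 14.64, 14.83 and 14.70 in tolerant H1975 cells. Every SK-216 value was below every tolerant value, with a change of -0.46 ± 0.10 (limma adjusted p = 0.00673, 95% interval -0.67 to -0.25). TAP1 (chr6:32845209-32853704) had 7.75, 8.02 and 7.74 with SK-216, against 8.24, 7.89 and 8.13 in tolerant cells. These arrays overlapped, and its change of -0.25 ± 0.22 had a 95% interval from -0.71 to 0.21 (limma adjusted p = 0.696). TAP2 (chr6:32821831-32838739), the partner chain of TAP1 in the transporter, had 10.85, 10.75 and 10.90 with SK-216, against 10.91, 10.94 and 10.71 in tolerant cells. It had the change nearest to 0 among the members, -0.02 ± 0.12, with a 95% interval from -0.26 to 0.22. The regulator NLRC5 (chr16:56989557-57083520) had 4.95, 4.56 and 4.67 with SK-216, against 5.10, 5.62 and 4.82 in tolerant cells. Most of these values lay under the 95th percentile of olfactory receptor probe sets, so the fold change of -0.45 ± 0.23 describes a signal close to that of unexpressed genes (limma adjusted p = 0.394), and it was -0.23 without tolerant array 2.

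**Figure D1:**
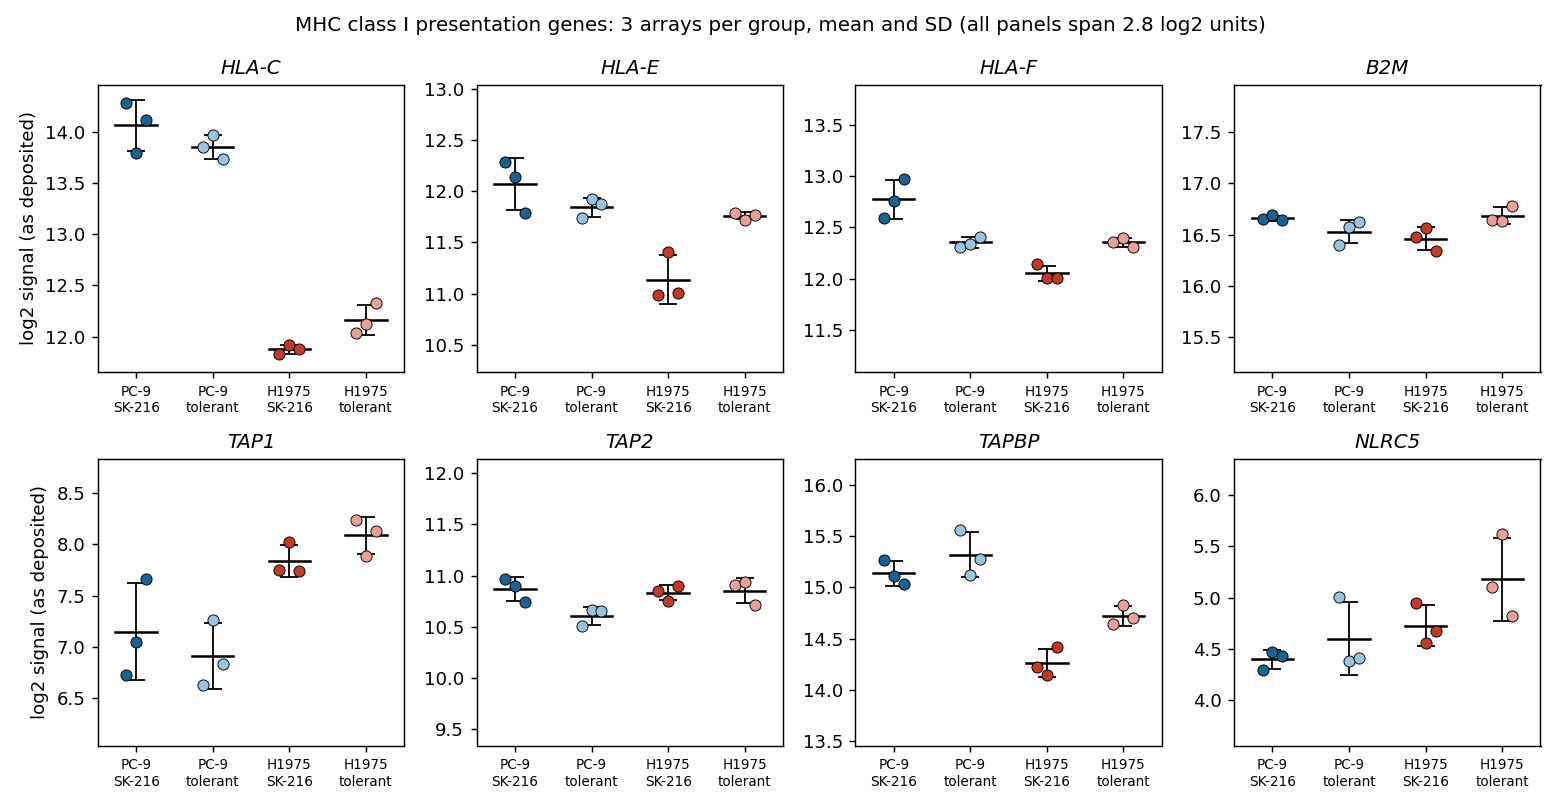
Log2 signal of the 8 measured members in each of the 12 arrays, by group; points are arrays, bars are the group mean and SD of 3 arrays, and every panel spans the same number of log2 units. In H1975 the SK-216 points of HLA-C, HLA-E, HLA-F, B2M and TAPBP lie below all tolerant points, and in PC-9 the SK-216 points of HLA-F, TAP2 and B2M lie above all tolerant points.

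In PC-9 cells no member passed the test after SK-216, where 0.443% of all probe sets were called. By limma 2 members, HLA-F and TAP2, had an unadjusted p below 0.05, as did 2342 of all 21448 probe sets. The count of called members was also 0 without the variance trend. Of the 8 members 6 were higher with SK-216 and 2 lower, with a median log2 fold change of 0.22, against 0.00 over all probe sets. In 3 members, HLA-F, TAP2 and B2M, every SK-216 array lay above every tolerant array, which held for 8.21% of all probe sets.

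HLA-F had 12.59, 12.76 and 12.97 in SK-216 PC-9 arrays, against 12.31, 12.34 and 12.41 in tolerant PC-9 arrays. That is a factor of 1.34, with a change of 0.42 ± 0.10 and an unadjusted 95% interval from 0.21 to 0.63. Its adjusted p by limma was 0.074, and it crossed the threshold when the dimmest 30% of probe sets were left out (0.0466) and without SK-216 PC-9 array 1 (0.0466). HLA-E had 12.28, 12.14 and 11.79 with SK-216, against 11.74, 11.92 and 11.87 in tolerant cells, and the groups overlapped through SK-216 array 3. Its change was 0.23 ± 0.13, with a 95% interval from -0.04 to 0.49, and became 0.12 without SK-216 array 1 and 0.37 without SK-216 array 3. HLA-C had 14.28, 13.79 and 14.11 with SK-216, against 13.85, 13.97 and 13.73 in tolerant cells. These arrays overlapped as well, at 0.21 ± 0.11, with an interval from -0.02 to 0.44, and at 0.10 without SK-216 array 1 and 0.34 without SK-216 array 2.

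B2M had 16.65, 16.69 and 16.64 in SK-216 PC-9 cells, against 16.40, 16.57 and 16.62 in tolerant PC-9 cells. The groups were narrowly apart, and the change was 0.13 ± 0.07, or 0.07 without tolerant array 1 and 0.03 after quantile normalization. TAP2 had 10.97, 10.90 and 10.74 with SK-216, against 10.51, 10.66 and 10.65 in tolerant cells, a change of 0.26 ± 0.12 (limma adjusted p = 0.41). TAP1 had 6.73, 7.05 and 7.66 with SK-216, against 6.63, 7.26 and 6.83 in tolerant cells, the widest spread among the members in SK-216 PC-9 cells (SD 0.47). Its change of 0.24 ± 0.22 rested on SK-216 array 3 and was -0.02 without it. TAPBP had 15.27, 15.11 and 15.03 with SK-216, against 15.56, 15.12 and 15.28 in tolerant cells, a change of -0.18 ± 0.10, with an interval from -0.39 to 0.02. It was -0.06 without tolerant array 1 and -0.28 without tolerant array 2. NLRC5 had 4.29, 4.47 and 4.43 with SK-216, against 5.01, 4.38 and 4.41 in tolerant cells, all within the olfactory receptor range. Its change of -0.20 ± 0.23 became 0.00 without tolerant array 1 and -0.31 without tolerant array 2.

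The question whether the response differed between the lines was tested as the difference of the 2 changes, PC-9 minus H1975. It was called for HLA-F and HLA-E, both positive, where 1.09% of all probe sets were called positive. HLA-F changed by 0.42 ± 0.10 in PC-9 and by -0.30 ± 0.10 in H1975, a difference of 0.72 ± 0.14 (limma adjusted p = 0.00809). HLA-E changed by 0.23 ± 0.13 in PC-9 and by -0.62 ± 0.13 in H1975, a difference of 0.85 ± 0.18 (limma adjusted p = 0.0136). Without the variance trend neither passed, with adjusted p of 0.111 for HLA-F and 0.133 for HLA-E. HLA-E also missed without SK-216 PC-9 array 1 (adjusted p = 0.0576), the highest of the PC-9 arrays for this gene.

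Among members chosen with earlier results of these data known, the difference was positive in all 8, against 49.2% of all probe sets. Its median was 0.42, against -0.01 over all probe sets. For B2M it was 0.35 ± 0.10 (limma adjusted p = 0.0846) and for HLA-C 0.50 ± 0.16 (limma adjusted p = 0.132), which became 0.0408 without SK-216 PC-9 array 2. TAP1, TAP2, TAPBP and NLRC5 had differences from 0.25 to 0.49, with adjusted p of 0.428 or more. With 1 array left out, the difference for NLRC5 ran from 0.03 (without tolerant H1975 array 2) to 0.46 (without tolerant PC-9 array 1), that for TAP1 fell to 0.23 (without SK-216 PC-9 array 3) and that for TAPBP to 0.18 (without tolerant PC-9 array 2). Averaged over the 8 members, the 3 SK-216 PC-9 arrays lay 0.13, 0.11 and 0.17 above the mean of tolerant PC-9 arrays on the log2 scale. The 3 SK-216 H1975 arrays lay 0.32, 0.30 and 0.35 below the mean of tolerant H1975 arrays, that is at -0.32, -0.30 and -0.35. The tolerant arrays of both lines stayed between -0.03 and 0.04 of their own mean, so on this average the arrays of a group differed from each other by less than the groups did.

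**Figure D2:**
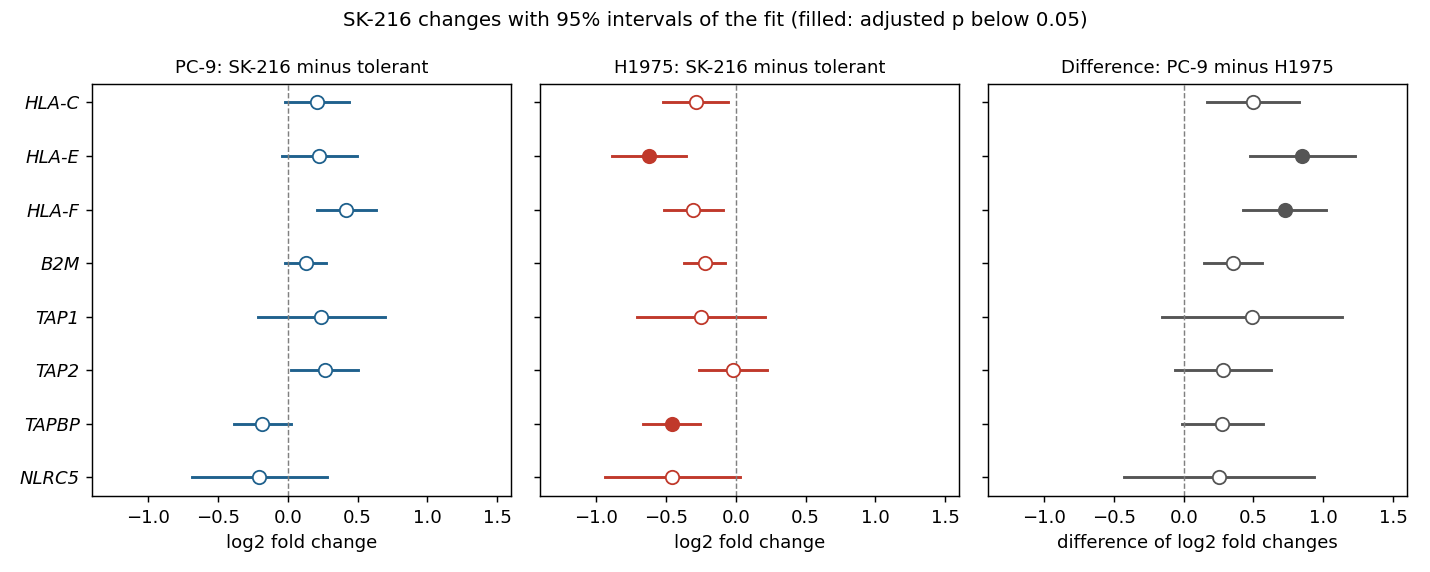
Log2 fold change of each member with SK-216 in PC-9 (left) and H1975 (middle), and the difference of these changes (right); bars are 95% intervals of the fit before adjustment, and filled points have an adjusted p below 0.05. HLA-E and TAPBP are filled in H1975, no point is filled in PC-9, and HLA-E and HLA-F are filled in the difference, at 0.85 and 0.72.

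Tolerant cells of the 2 lines already differed in part of these genes. Between tolerant PC-9 and tolerant H1975 cells 4 of 8 members were called, 2 higher and 2 lower in PC-9, where 44.0% of all probe sets were called, so this share is near the background. HLA-C was higher in PC-9, at 13.85 ± 0.12 in tolerant PC-9 and 12.16 ± 0.15 in tolerant H1975 cells (mean log2 signal ± SD, n = 3 each), a factor of 3.22 (limma adjusted p = 4.34e-12). TAPBP was also higher, at 15.32 ± 0.22 in PC-9 and 14.72 ± 0.10 in H1975 (limma adjusted p = 1.82e-05). TAP1 was lower, at 6.91 ± 0.32 in PC-9 and 8.09 ± 0.18 in H1975, a factor of 0.441 (limma adjusted p = 8.07e-05). NLRC5 was called lower at a level close to that of unexpressed genes, 4.60 ± 0.36 in PC-9 and 5.18 ± 0.41 in H1975, with overlapping arrays. Its adjusted p of 0.0466 by limma rose to as much as 0.279 when 1 array was left out.

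For HLA-F and HLA-E no difference between the tolerant lines was found. Tolerant cells had 12.35 ± 0.05 in PC-9 and 12.36 ± 0.05 in H1975 for HLA-F, with a 95% interval of the difference from -0.21 to 0.21, and for HLA-E the interval was -0.18 to 0.35. B2M differed by -0.15 ± 0.07 and TAP2 by -0.25 ± 0.12 (limma adjusted p = 0.0874 and 0.0959). For B2M the limma adjusted p was 0.0304 with arrays centred on their medians, but 0.955 at a difference of -0.01 after quantile normalization. All tolerant PC-9 arrays lay below all tolerant H1975 arrays for both genes, as they did for 5419 of all 21448 probe sets. Over the 4 groups, HLA-F ran from SK-216 PC-9 at the top to SK-216 H1975 at the bottom, with the tolerant groups of both lines between them and overlapping. HLA-E had the same bottom group, while the arrays of its other groups overlapped from neighbour to neighbour. HLA-C and TAPBP followed the line, with both PC-9 groups above both H1975 groups, and TAP1 followed it the other way. In TAP2 the arrays of SK-216 PC-9, tolerant H1975 and SK-216 H1975 overlapped and tolerant PC-9 lay below them. In B2M the top pair, tolerant H1975 and SK-216 PC-9, overlapped, and so did the bottom pair, tolerant PC-9 and SK-216 H1975. In NLRC5 every neighbouring pair overlapped.

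**Figure D3:**
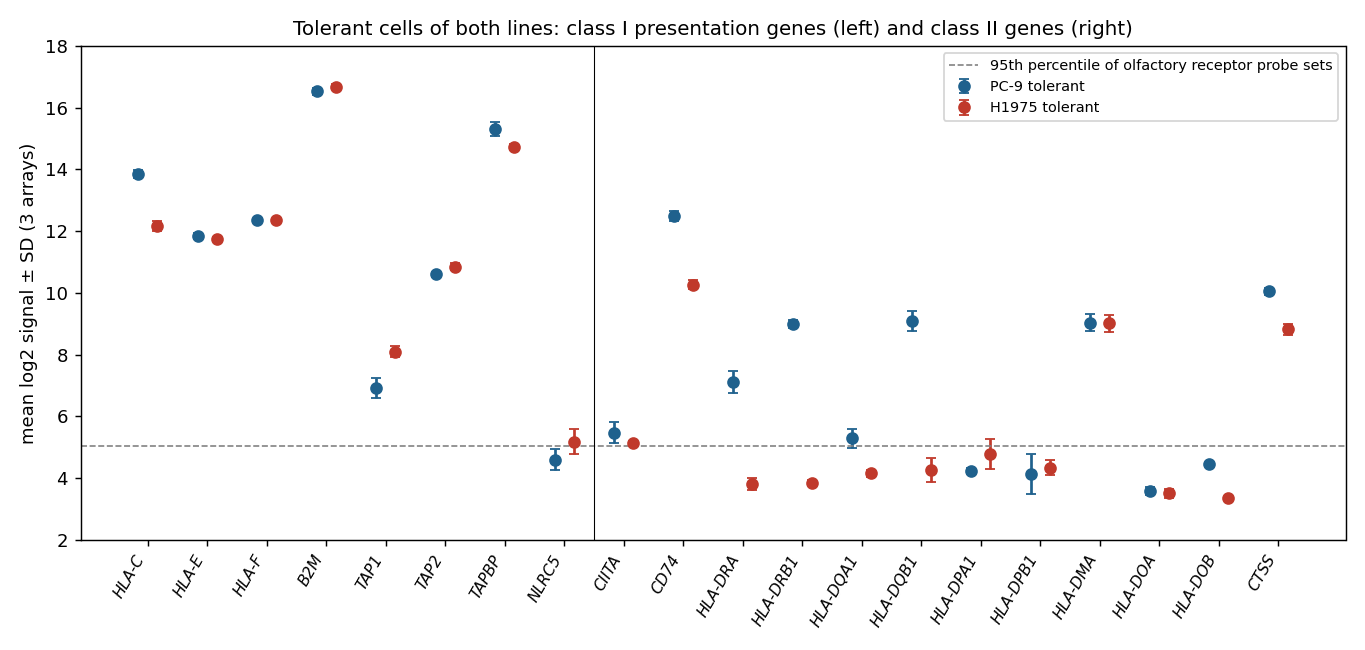
Mean log2 signal ± SD (3 arrays) in tolerant PC-9 and tolerant H1975 cells for the 8 class I members and 12 class II genes; the dashed line is the 95th percentile of olfactory receptor probe sets. HLA-C is higher and TAP1 lower in PC-9, while HLA-DRB1 (8.99 in PC-9 and 3.85 in H1975) crosses the dashed line in PC-9 only.

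Promoter sequences are shown as a description, with letters chosen after the values were seen, and any link to the changes was not tested. Interferon-responsive elements of class I genes lie close to the start of the gene. Windows from 250 bases before to 50 bases after the start were searched on both strands in RefSeq sequence (GRCh38.p14), where 6 measured members matched, TAP1 with a pair of starts, and HLA-E and NLRC5 did not. The letters GAAA, any 2 bases and GAAA, the core of the interferon-stimulated response element, were present in 5 of these 6 genes (HLA-F, B2M, TAP1, TAP2 and TAPBP), against 3.57% of 35116 windows of all genes. On the strand of the gene alone 3 of the 6 held them. The 250 bases before the start are printed on the strand of the gene, with matches to these letters, or to their reverse complement, in capitals. B2M lies at chr15:44711267-44711516 on the plus strand, HLA-F at chr6:29723184-29723433 on the plus strand, TAPBP at chr6:33314079-33314328, TAP1 at chr6:32853705-32853954 and TAP2 at chr6:32838740-32838989 on the minus strand.
B2M: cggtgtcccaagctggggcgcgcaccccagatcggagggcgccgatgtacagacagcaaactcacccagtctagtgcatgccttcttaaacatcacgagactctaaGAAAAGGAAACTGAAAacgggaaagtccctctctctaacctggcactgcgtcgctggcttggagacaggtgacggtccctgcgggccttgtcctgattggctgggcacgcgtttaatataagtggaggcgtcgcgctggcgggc
HLA-F: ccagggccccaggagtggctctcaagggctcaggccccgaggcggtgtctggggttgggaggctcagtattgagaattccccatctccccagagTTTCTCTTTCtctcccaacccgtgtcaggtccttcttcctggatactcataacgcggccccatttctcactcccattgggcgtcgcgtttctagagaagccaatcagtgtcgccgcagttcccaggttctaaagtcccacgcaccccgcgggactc
TAPBP: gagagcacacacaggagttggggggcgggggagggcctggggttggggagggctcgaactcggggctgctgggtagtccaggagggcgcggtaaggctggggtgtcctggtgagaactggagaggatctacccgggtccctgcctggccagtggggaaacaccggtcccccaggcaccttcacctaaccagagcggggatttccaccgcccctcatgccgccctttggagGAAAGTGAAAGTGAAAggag
TAP1: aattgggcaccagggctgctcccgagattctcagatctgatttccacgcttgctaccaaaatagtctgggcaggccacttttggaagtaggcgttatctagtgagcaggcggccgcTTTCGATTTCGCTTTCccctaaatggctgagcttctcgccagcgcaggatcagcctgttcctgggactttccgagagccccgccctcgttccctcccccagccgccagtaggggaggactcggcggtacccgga
TAP2: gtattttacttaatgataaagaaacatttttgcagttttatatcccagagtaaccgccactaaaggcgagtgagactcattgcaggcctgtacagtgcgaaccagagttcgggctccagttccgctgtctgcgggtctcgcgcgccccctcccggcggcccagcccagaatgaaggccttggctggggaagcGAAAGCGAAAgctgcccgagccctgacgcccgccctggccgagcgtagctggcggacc
In B2M, TAP1 and TAPBP a pair of matches overlapped by 4 bases, and in TAPBP they began 20 and 14 bases before the start, closer than in the other genes. TAPBP fell in H1975, and TAP2, which also holds the letters, had a change near 0 there. A match describes the window, and whether it bears on the response was not tested.

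HLA-C held no exact match to these letters. Forms of the element with other bases were not searched, so none can be called absent from HLA-C. Its window (chr6:31272093-31272342, minus strand) is shown for other letters found in class I promoters, with TGACGC, as in the X box that NLRC5 complexes use, and CCAAT, the NF-Y element, in capitals on either strand.
HLA-C: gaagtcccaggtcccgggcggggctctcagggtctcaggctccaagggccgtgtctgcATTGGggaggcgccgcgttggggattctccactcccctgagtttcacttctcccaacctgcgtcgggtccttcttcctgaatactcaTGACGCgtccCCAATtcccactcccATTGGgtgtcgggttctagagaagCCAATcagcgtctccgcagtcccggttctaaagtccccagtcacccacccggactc
CCAAT was present in 4 of the 6 genes (HLA-C, HLA-F, B2M and TAP1) and in 34.6% of all windows, and TGACGC in 2 (HLA-C and TAP2) and in 9.14%. TTCNNNGAA, a STAT site, was found in TAP1 alone, at its second start, and in 7.66% of all windows. GGGAA, any 3 bases and CC, an NF-kB form, was found in B2M and TAPBP and in 6.9%, while GGG, any 4 bases and CCC (17.8%) and TGACGT (7.98%) were found in none of the 6. Matches of different motifs may overlap.

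Lists of genes that act beside the members, also chosen with earlier results of these data known, were read in the same fit. Of 6 genes for peptide trimming and loading 0 passed in PC-9 (limma, 0 at an unadjusted p below 0.05), while 2 fell and 0 rose in H1975, with a median of -0.13. Over all probe sets 0.443% were called in PC-9 and 3.80% in H1975, where 2.35% were called lower. In PC-9 the change was 0.24 ± 0.18 for TAPBPL and -0.03 ± 0.11 for ERAP2. TAPBPL, a homologue of tapasin that edits peptides, was at 7.72 ± 0.27 in SK-216 H1975 cells and 8.72 ± 0.33 in tolerant H1975 cells (mean log2 signal ± SD, n = 3 each), a change of -0.99 ± 0.18 in H1975 (limma adjusted p = 0.00127). ERAP2, an aminopeptidase that trims peptides in the endoplasmic reticulum, changed by -0.73 ± 0.11 in H1975 (limma adjusted p = 0.000176). Both calls held under all 22 alternatives. The difference of the changes was called for TAPBPL (1.23 ± 0.25) and ERAP2 (0.70 ± 0.16), where 1.09% of all probe sets were called positive. Without the variance trend neither difference passed (limma adjusted p = 0.0624 and 0.174), and that of ERAP2 also missed without SK-216 PC-9 array 1 (0.0795), tolerant PC-9 array 3 (0.0638) or SK-216 H1975 array 2 (0.0556). The related ERAP1 at -0.26 ± 0.13 and the chaperone CANX at 0.19 ± 0.07 did not pass in H1975.

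Of the immunoproteasome subunits and the activator subunit, 4 genes, none was called in PC-9 or H1975 (limma, with 2 and 3 at an unadjusted p below 0.05). PSMB8 and PSMB9, which lie beside TAP1 and TAP2 on chromosome 6, had changes of 0.31 ± 0.14 and 0.30 ± 0.14 in PC-9. Their SK-216 arrays all lay above the tolerant arrays there, as in 8.21% of all probe sets. In H1975 their SK-216 arrays all lay below the tolerant arrays, as in 9.56% of all probe sets. Both had a change of -0.45 ± 0.14 in H1975, with limma adjusted p of 0.0907 and 0.0805. Without SK-216 H1975 array 3 these changes were -0.28 and -0.27 (adjusted p = 0.411 and 0.409), while PSMB8 passed without tolerant H1975 array 2 (0.0327) and PSMB9 without SK-216 H1975 array 2 (0.0336). The difference of the changes was 0.75 ± 0.20 for each, with limma adjusted p of 0.064 for PSMB8 and 0.0595 for PSMB9. Both differences passed with the dimmest 30% of probe sets left out (0.0403 and 0.0352). PSMB10 had a change of -0.63 ± 0.24 and PSME1 of -0.32 ± 0.16 in H1975, neither past the test.

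Of 11 measured transcription factors of class I promoters, 0 passed in PC-9 (limma, 0 at an unadjusted p below 0.05). In H1975, where 2.35% of all probe sets were called lower, 1 of them fell. It was NFYB, a subunit of the CCAAT-binding factor NF-Y, at -0.71 ± 0.16 (limma adjusted p = 0.0105), a call lost without tolerant H1975 array 3 (0.0915), without SK-216 H1975 array 1 (0.0703) and without the variance trend (0.0557). The difference of the changes for NFYB was 0.95 ± 0.23 (limma adjusted p = 0.031). The interferon-induced factor IRF1 at -0.54 ± 0.20, IRF2 at -0.35 ± 0.17 and RFX5, the DNA-binding subunit of the X box complex, at -0.24 ± 0.13 did not pass. Over the 11 genes the median in H1975 was -0.05, with 5 positive and 6 negative.

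Of 10 genes for class I-like molecules none was called in PC-9 or H1975 (limma, with 3 and 4 at an unadjusted p below 0.05). Over all 21448 probe sets, 2342 in PC-9 and 3045 in H1975 had such an unadjusted p. The medians of the list were 0.02 in PC-9 and 0.04 in H1975, with 5 genes positive and 5 negative in PC-9, and 6 and 4 in H1975. MICA, a stress-induced ligand of the NKG2D receptor of natural killer cells, was higher with SK-216 on all arrays of both lines, by 0.60 ± 0.17 in PC-9 and 0.52 ± 0.17 in H1975 (limma adjusted p = 0.139 and 0.091). Its relative MICB had changes of 0.34 ± 0.10 in PC-9 and of 0.26 ± 0.10 in H1975, again with non-overlapping arrays and no call. Of all 21448 probe sets, 1761 in PC-9 and 1920 in H1975 had every SK-216 array above every tolerant array. HFE, the haemochromatosis gene, at -0.43 ± 0.18 and ULBP1, another NKG2D ligand, at 0.45 ± 0.20 did not pass in H1975.

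Of 12 measured class II presentation genes 0 passed in PC-9 (limma, 0 at an unadjusted p below 0.05). In H1975 3 fell, where 2.35% of all probe sets were called lower. CTSS, cathepsin S, which cuts the invariant chain, had a change of 0.28 ± 0.15 in PC-9. It was at 7.83 ± 0.14 in SK-216 H1975 cells and 8.81 ± 0.19 in tolerant H1975 cells (mean log2 signal ± SD, n = 3 each), a change of -0.98 ± 0.15 (limma adjusted p = 0.000142). For CTSS the difference of the changes was 1.26 ± 0.21 (limma adjusted p = 0.00132). CD74, the invariant chain, changed by -0.47 ± 0.12 in H1975 (limma adjusted p = 0.0236), and CIITA, the class II activator, by -0.75 ± 0.21 (limma adjusted p = 0.0457) to a level within the olfactory receptor range. The call of CD74 ended in 4 and that of CIITA in 8 of the 12 fits that left out 1 array, with adjusted p of up to 0.115 and 0.149, and HLA-DMA at -0.39 ± 0.20 did not pass. The chains HLA-DRA, HLA-DRB1 and HLA-DQB1, named after their values were seen, had mean log2 signals of 7.11, 8.99 and 9.09 in tolerant PC-9 cells. In tolerant H1975 cells they had 3.82, 3.85 and 4.27, within the olfactory receptor range. Of the 12 genes 7 were called higher in tolerant PC-9 than in tolerant H1975 cells and 0 lower, where 44.0% of all probe sets were called in either direction. Besides these chains they were HLA-DQA1 (5.29 in PC-9 and 4.15 in H1975), HLA-DOB (4.45 and 3.35), CD74 (12.48 and 10.27) and CTSS (10.05 and 8.81). Other class II genes were not called: tolerant PC-9 and H1975 cells had, for example, 4.23 and 4.78 for HLA-DPA1, 4.14 and 4.34 for HLA-DPB1, and 9.03 and 9.01 for HLA-DMA.

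The 7 interferon-stimulated genes measured for comparison (IFIT1, IFIT3, MX1, OAS1, ISG15, IFI44L and IFI6) had a median of 0.02 in PC-9, with 0 calls (limma, 1 at an unadjusted p below 0.05). In PC-9 the means of IFIT1 (4.46 in tolerant and 4.79 in SK-216 cells) and IFI44L (3.68 and 3.43) lay under 5.05, within the olfactory receptor range. A fall of IFIT1 or IFI44L could therefore hardly be measured in PC-9. In H1975 all 7 were called lower, with a median of -1.75, where 2.35% of all probe sets were called lower. In tolerant cells all 7, with a median of -4.78, were called lower in PC-9 than in H1975, as were 4860 of all 21448 probe sets. The median of the class I members in H1975, -0.29, was smaller in size, and whether the lists differ was not tested.

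**Figure D4:**
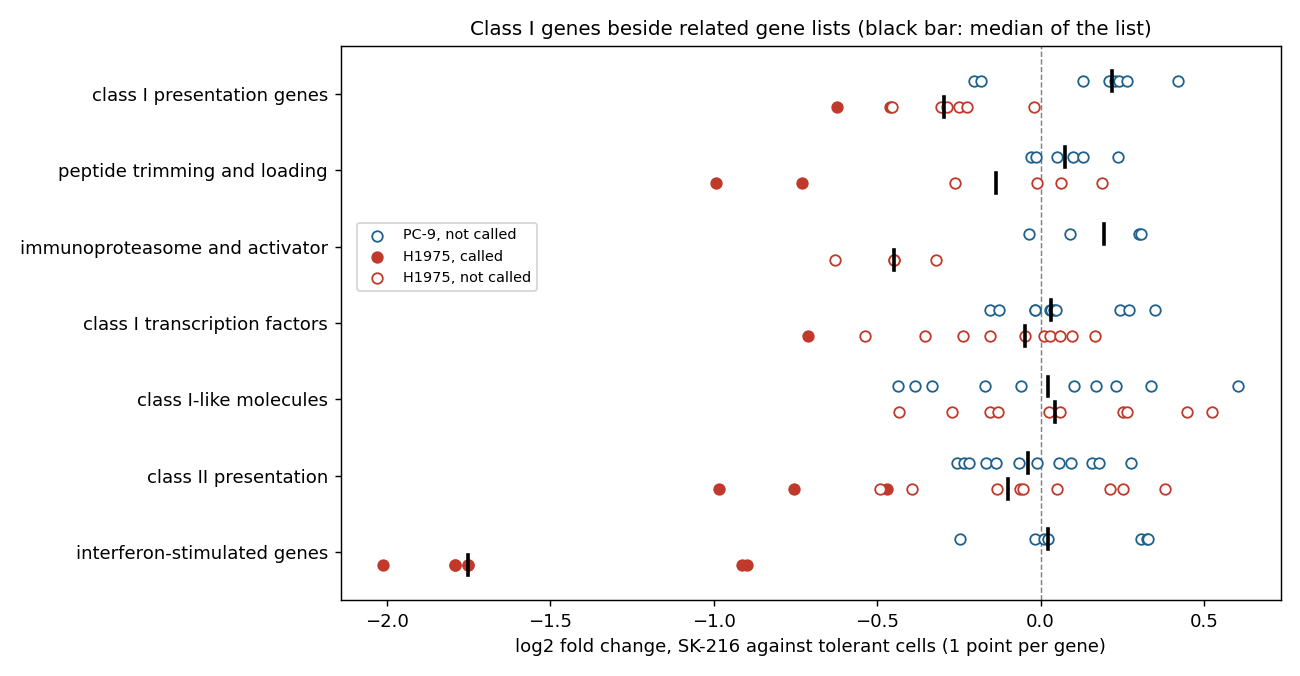
Log2 fold change with SK-216 for each measured gene of 7 lists, PC-9 in the upper and H1975 in the lower row of each list; filled points have an adjusted p below 0.05 and black bars are list medians. In H1975 the medians include -1.75 for interferon-stimulated genes, -0.45 for the immunoproteasome list, -0.29 for class I presentation genes and 0.04 for class I-like molecules, and no point is filled in PC-9.

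With each gene centred on its mean in each line, the genes with the highest correlation with the average of the 8 members over the 12 arrays were QPRT, a nicotinate metabolism enzyme (Pearson r = 0.96), LIPH, a lipase (0.96), PDZK1IP1 (0.95), STEAP4, a metalloreductase (0.95), and SAA1, an acute phase protein (0.94). The arrays share the 4 groups, so these values describe a common order of groups. Each member against the average of the other 7 gave r from 0.68 to 0.70 for HLA-F, HLA-E and B2M, 0.58 for HLA-C, 0.37 for TAPBP and 0.19 to 0.21 for TAP1, TAP2 and NLRC5. These r values describe the arrays, with no test, and were highest in the heavy chains and B2M.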

How the data were processed

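Total RNA (250 ng per array) of 12 samples was labelled and hybridised to a 1-colour Affymetrix array, per the labels' protocols. The authors deposited log2 signals, made with Transcriptome Analysis Console per the submitters' processing notes. The summarisation and normalization behind them, and the build of the array, were not stated in these sources. Values ran from 2.19 to 18.61 and array medians from 6.56 to 6.62, and nothing further was normalized or filtered. The number of arrays limits the precision. Symbols came from the platform annotation: 17709 probe sets had 1 symbol, 0 had several and 3739 were unnamed here. Coordinates and sequences are from RefSeq GRCh38.p14.

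limma 3.58.1 in R 4.3.3 fitted 4 group means to all 12 arrays (8 residual degrees of freedom), with eBayes and a variance trend, two-sided, with Benjamini-Hochberg adjustment over all probe sets. The fit was tested on simulated data. Alternatives changed the variance model, samples, replicate block, filter, scaling, weights or threshold, or left out each array. Replicate numbers did not pair the samples. Described genes were all members, up to 4 genes per related list with the smallest adjusted p in H1975, and the 5 genes most like the members. Members and lists were chosen with earlier results of these data known, and olfactory receptor genes and promoter letters after the values were seen. Figures were drawn with matplotlib 3.10.9.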

Additional observations from a re-analysis of the deposited data

Results flagged for a closer look

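The SK-216 change differed between the lines in 2 of 8 measured class I members and in 4 related genes. This was a test of the difference itself (PC-9 minus H1975, limma, adjusted over all probe sets), which called 1.09% of all probe sets positive. The related genes were 2 of 6 for peptide trimming and loading, 1 of 11 transcription factors and 1 of 12 class II genes. No gene passed among 4 of the immunoproteasome list and 10 class I-like molecules. The difference was 0.72 on the log2 scale for HLA-F (adjusted p = 0.00809) and 0.85 for HLA-E (adjusted p = 0.0136). It was 1.23 for TAPBPL (adjusted p = 0.0106), 0.70 for ERAP2 (adjusted p = 0.02), 1.26 for CTSS (adjusted p = 0.00132) and 0.95 for NFYB (adjusted p = 0.031). In PC-9 the change had an unadjusted p below 0.05 in HLA-F, and not in the other 5. Of the 7 interferon-stimulated genes, 6 were called higher by the same test, again where 1.09% of all probe sets were, with a median difference of 1.76 over the 7. In PC-9 the signals of IFIT1 and IFI44L lay within the olfactory receptor range. Without the variance trend, CTSS alone passed among the 2 members and 4 related genes (limma adjusted p = 0.012). Groups of 3 arrays are too small to look for single arrays that stand apart.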

How the results depend on the processing

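Members called for SK-216 in H1975 (2) became 0 without the variance trend, and for the difference of the changes (2) became 0 without it and 1 at an adjusted p below 0.01; for SK-216 in PC-9 (0) the count was 1 with the dimmest 30% left out. Over all probe sets, 814 calls in H1975 became 448 without the trend and 422 at 0.01, 95 in PC-9 became 18 and 33, and 304 for the difference became 99 and 136. Leaving out 1 array at a time gave 0 to 1 member calls and 30 to 104 calls over all probe sets in PC-9, and 1 to 3 member calls for the difference. Values near 0 changed sign: TAP2 in H1975 was 0.0087 after quantile normalization and -0.0917 to 0.0233 with 1 array left out, and HLA-F between tolerant lines was 0.0042 and -0.0317 to 0.0183. In PC-9, leaving out 1 array gave -0.0167 to 0.4483 for TAP1, -0.3133 to 0.0017 for NLRC5 and -0.1283 to 0.0617 for ERAP2. The call of NLRC5 between tolerant lines ended in 11 of 21 alternatives, that of the difference for NFYB in 10 and for ERAP2 in 5. Over all values of single genes, 1435 alternative values kept their direction and side of the threshold, 56 lost the call, 13 gained it and 12 changed sign. Why results moved was not tested.

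Replicate numbers shared between groups did not pair the arrays (same-number correlations from -0.0912 to 0.0295). With a block for the replicate number in each line, calls numbered 673 in H1975, 58 in PC-9, 247 for the difference and 9309 between tolerant lines, and with it over both lines 732, 73, 282 and 9339. Members called under either block were 2 in H1975, 0 in PC-9, 2 for the difference and 3 between tolerant lines, where the main count was 4. Signals near the olfactory receptor range (NLRC5, CIITA, and in PC-9 also IFIT1 and IFI44L) limit what their changes can show.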
